A study of Mus musculus with 39 samples.

Results

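The livers described here came from mice that drank corticosterone (Cort), the natural glucocorticoid of rodents, for 3 weeks at 100 µg/ml. They comprise 4 libraries of E47 knockout mice (E47KO, *E47*-/-) and 4 of wild-type mice (WT, *E47*+/+), 8 of the 39 libraries of the series, and were taken by genotype, tissue and treatment label. All mice of the groups used here were adult C57BL/6 males on chow, and the Cort mice were killed after a glucose tolerance test. The series profiled RNA from several tissues of both genotypes with and without glucocorticoids, to ask how E47 modulates the glucocorticoid receptor (GR). Untreated livers (6 E47KO and 5 WT) and livers after 3 weeks of dexamethasone (Dex), a synthetic glucocorticoid, at 10 µg/ml (3 E47KO and 2 WT) served for comparison. The Dex mice were also killed after a glucose tolerance test, whereas the label of the untreated mice names none, so Cort and this procedure cannot be told apart there. The knockout was global, with littermate controls, so a change in liver RNA can come from any tissue of the animal, and E47KO mice lack mature B cells.

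E47 belongs to the basic helix-loop-helix transcription factors and is a splice product of the *Tcf3* (E2A) gene, its sister product being E12. E proteins bind E-box sequences, CANNTG, and are held back by the ID proteins. GR, once bound by its steroid, activates gluconeogenic and lipid genes in hepatocytes, and long exposure to glucocorticoids leads to fatty liver and high blood glucose. Hepatocytes also make cholesterol from acetyl-CoA under control of the SREBP factors, export lipids on apolipoproteins, conjugate foreign compounds with glutathione and secrete many proteins at different levels in males and females.

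Each Cort library held 37.81 to 54.56 M reads in genes, and levels are given as CPM, counts scaled to a common library total. The numbers of the animals fell into a pair of ranges. The first range held E47KO replicates 1 and 2 and WT replicate 1, and the second held E47KO replicates 3 and 4 and WT replicates 2, 3 and 4. The tests therefore carried a term for the range, and WT replicate 1 is the only wild-type liver of the first range. The 10 skeletal muscle markers summed to 0.871 to 1.09 CPM in the 3 libraries of the first range and to 158 to 216 CPM in the 5 of the second, in both genotypes alike. Their part in the results was not tested. Hepatocyte markers (19 of 20 listed) summed to 131700 to 160100 CPM in E47KO and 141200 to 189100 CPM in WT livers, and 0 of 19 passed (5 at an unadjusted p under 0.05, 4 in DESeq2). Kidney markers summed to at most 0.0521 CPM, with 6 of 8 at 0 counts in all 8 livers, and 7 of 10 pancreatic acinar markers were at 0 counts. The 10 fat cell markers summed to 693.8 to 2540 CPM in E47KO and 852 to 1268 CPM in WT livers, nearly all of it *Car3*, which hepatocytes express too, with 0 of 5 tested past the threshold. The defining genes *Lep* and *Adipoq* were at 0 counts and at most 0.0781 CPM, and the part of this list in the results was not tested.

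*Tcf3* itself (chr10:80409514-80433647, mm10) reached 19.95, 16.6, 17.5 and 20.3 CPM in the 4 E47KO livers and 18.7, 15.8, 16.8 and 18.6 CPM in the 4 WT livers. The genotypes overlapped, with a log2 change of 0.08 ± 0.10 (SE) and adjusted p = 0.738. Counts over the whole gene include E12 and exons outside the deletion, so this level checks nothing about the labels. The B cell genes *Ms4a1* and *Ighd*, picked after their values were seen, had 0 counts in all 4 E47KO livers and at most 2 and 5 counts in a WT liver, too few for a test. The whole list of 18 B cell markers summed to 4.37 to 7.49 CPM in E47KO and 4.25 to 8.42 CPM in WT livers, so the genotypes overlapped, and 0 of its 6 tested genes passed, with 4 of 6 below 0. It does not separate the genotypes.

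Of 14588 genes tested, 67 (0.459%) passed an adjusted p of 0.05 in edgeR's quasi-likelihood test. Of these, 54 were lower in E47KO liver (0.37% of the genes tested) and 13 higher (0.0891%). At an unadjusted p under 0.05, 1344 genes (9.21%) were lower and 868 (5.95%) higher. Of all genes 49.67% had a log2 change below 0, and their median was 0.00189. Counts of every gene list below are to be read against these shares. DESeq2, a second count test, called 552 of 14586 genes (3.78%), so counts per gene list also depend on the test, and its count is given where it differs. The 67 genes held 37 that were more than 2-fold lower and 5 that were more than 2-fold higher, and 62 of them code for protein. The 4 E47KO libraries lay wholly below the 4 WT libraries in 46 of the 54 lower genes, against 547 of all genes (3.75%). They lay wholly above in 10 of the 13 higher genes, against 379 of all genes (2.6%). The 67 genes were chosen by their p in these same libraries, which favours such separation, so nothing is read from it. These calls rested on few animals: 1 gene, *Gm9855*, passed without WT replicate 1 and also without E47KO replicate 3, and 4 passed without the term for the range. Without WT replicate 1 the log2 changes were -1.80 for *Apoa4*, -0.90 for *Rnd2*, -1.29 for *Tdg*, -0.81 for *Acacb*, 1.76 for *Igfbp2*, 1.13 for *Cd74* and 4.09 for *Hsd3b5*, with adjusted p between 0.0725 and 0.288. Without E47KO replicate 3 the adjusted p of the 25 named genes that fell out lay between 0.0509 and 0.129.

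**Figure D1:**
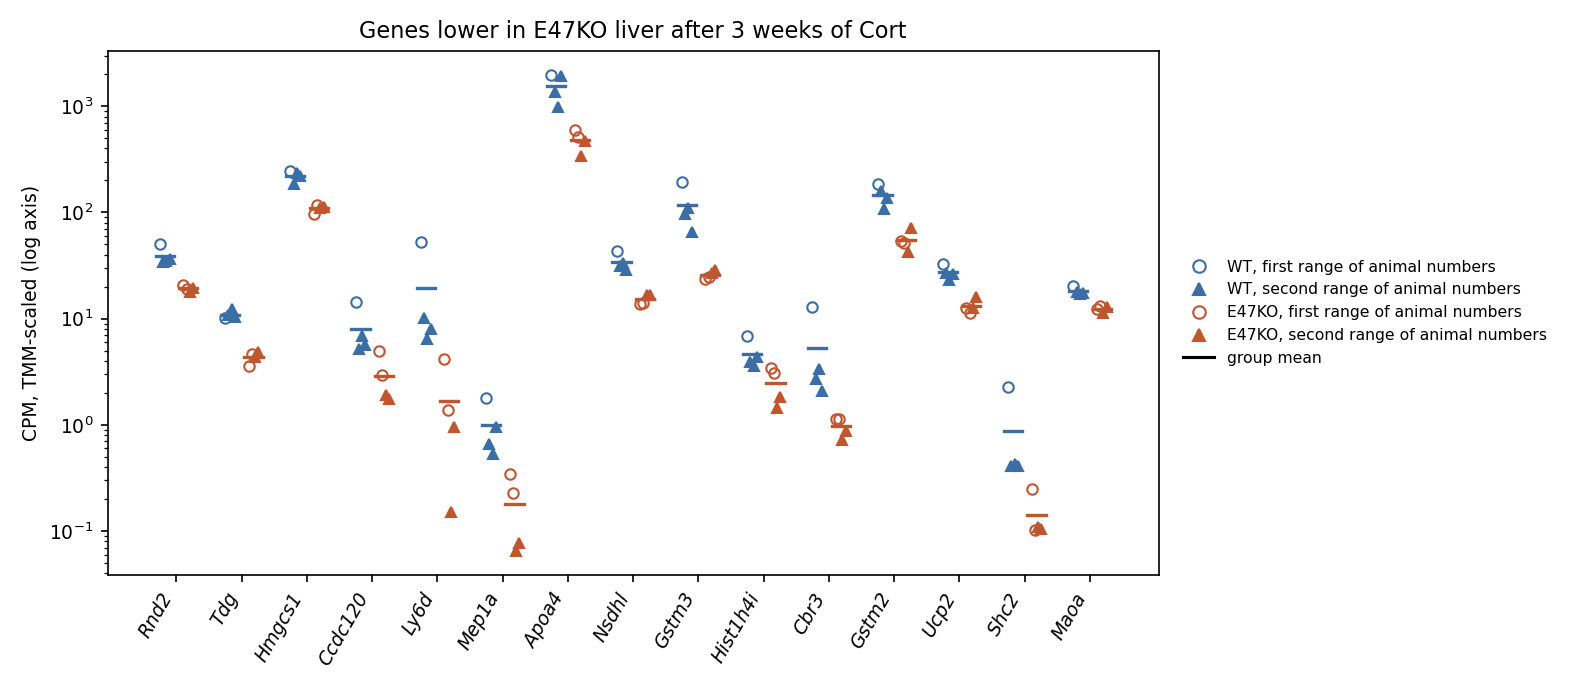
CPM (log axis) of the 15 named genes lower in E47KO liver, 1 symbol per library, with WT in blue and E47KO in red. Open circles are the first range of animal numbers, triangles the second, and bars the group means. In each gene all 4 E47KO libraries lie below all 4 WT libraries, which the rule for naming these genes required. WT replicate 1, the open blue circle, is often the highest, as for *Ly6d* at 52.9 CPM.

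Of 20 listed enzymes of cholesterol synthesis 2 passed (4 in DESeq2, all lower), both lower in E47KO liver: *Hmgcs1*, the cytosolic HMG-CoA synthase at the entry of the pathway, and *Nsdhl*, which removes a methyl group from sterol intermediates late in it. With these, 11 had an unadjusted p under 0.05, all lower, and 18 of 20 had a log2 change below 0 (49.67% of all genes did), with a list median of -0.41. *Hmgcs1* reached 96.5, 117, 110 and 114 CPM in the E47KO livers and 244, 187, 236 and 221 CPM in the WT livers. Every E47KO value was below every WT value, a 2.05-fold lower level (log2 change -1.03 ± 0.11, adjusted p = 0.0105). *Nsdhl* reached 13.8, 14.02, 16.6 and 16.6 CPM in E47KO against 43.2, 31.1, 33.8 and 29.0 CPM in WT livers. The E47KO livers were again all lower, by 2.26-fold (log2 change -1.18 ± 0.14, adjusted p = 0.0117), and WT replicate 1 was the highest. Both genes also passed without the term for the range, with adjusted p = 0.0204 for *Hmgcs1* and 0.0464 for *Nsdhl*. Without WT replicate 1 the log2 changes were -0.94 for *Hmgcs1* (adjusted p = 0.133) and -0.91 for *Nsdhl* (adjusted p = 0.0725), which missed the threshold.

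The other sterol enzymes did not pass, and those named here were picked for their log2 change or their place in the pathway. *Cyp51*, the lanosterol demethylase, had a log2 change of -0.76 ± 0.18 (adjusted p = 0.104). *Idi1*, the isopentenyl diphosphate isomerase, had -0.80 ± 0.28 (adjusted p = 0.227). *Sqle*, the squalene epoxidase, had 36.2 ± 22.6 CPM (SD, n = 4) in E47KO and 57.8 ± 21.8 CPM in WT livers, and the genotypes overlapped. The list's summed level was 1343 to 1726 CPM in E47KO and 1984 to 2365 CPM in WT livers, so that the genotypes did not overlap. This was not particular to sterol enzymes. The sums of the growth hormone and STAT5 list and of the MHC class II list, given below, did not overlap either, with E47KO higher. The list's median was -0.70 in the first range and -0.26 in the second. Among 18 tested genes of sterol regulation and uptake, such as *Srebf2* and *Insig1*, 0 passed (1 in DESeq2) and the median was -0.04.

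The 250 bases upstream of the start of both genes that passed are shown because E47 acts through E-boxes and the pathway's usual regulators through sterol regulatory elements (SRE). They were read on the plus strand from RefSeq (GRCm38.p6), at chr13:119690101-119690350 for *Hmgcs1* and chrX:72918271-72918520 for *Nsdhl*. Capitals mark the E-box (CANNTG), the SRE (TCACNCCAC) and the CCAAT box, each searched on both strands, the last reading ATTGG on the reverse.
Hmgcs1: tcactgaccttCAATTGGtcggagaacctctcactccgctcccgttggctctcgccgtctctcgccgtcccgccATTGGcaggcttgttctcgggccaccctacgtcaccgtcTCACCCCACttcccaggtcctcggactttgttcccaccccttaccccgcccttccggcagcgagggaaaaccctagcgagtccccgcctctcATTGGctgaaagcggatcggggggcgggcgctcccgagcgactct
Nsdhl: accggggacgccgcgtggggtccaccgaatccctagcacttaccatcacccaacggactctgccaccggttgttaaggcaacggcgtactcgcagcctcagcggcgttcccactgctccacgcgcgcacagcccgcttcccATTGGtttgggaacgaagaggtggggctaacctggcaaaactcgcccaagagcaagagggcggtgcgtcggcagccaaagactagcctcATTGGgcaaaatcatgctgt
The *Hmgcs1* window held 1 E-box, starting at -239 and overlapped by a CCAAT box, 1 SRE at -137 and 3 CCAAT boxes at -237, -176 and -45. The *Nsdhl* window held 0 E-boxes, 0 SREs of these letters and 2 CCAAT boxes at -109 and -20. An E-box lay in 66.2% of 32851 windows of the same length, in 63.8% of the 47 windows found for the lower genes and in 66.7% of the 18 found for the sterol list. The SRE letters lay in 1.05%, 4.26% and 5.56% of them, which for the lower genes is 2 windows and for the sterol list 1. CCAAT boxes lay in 33.8%, 40.4% and 77.8%. A match of letters is a description and no evidence of binding.

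Of 29 tested genes of fatty acid and triglyceride synthesis 1 passed (5 in DESeq2, all lower), *Acacb*, the mitochondrial acetyl-CoA carboxylase whose malonyl-CoA restrains fatty acid import for oxidation. It reached 23.7, 21.6, 35.3 and 44.8 CPM in E47KO and 79.9, 58.3, 70.3 and 82.2 CPM in WT livers. The E47KO livers were all lower, by 2.27-fold (log2 change -1.18 ± 0.20, adjusted p = 0.048), with -1.82 in the first range and -0.81 in the second. With it, 9 genes had an unadjusted p under 0.05, all lower (9.21% of all genes were). Of the 29, 26 lay below 0 (49.67% of all genes), with a median of -0.20. Among those that did not pass, *Cd36*, the fatty acid importer, had 137 ± 73.1 CPM in E47KO and 355 ± 132 CPM in WT livers (log2 change -1.60 ± 0.40, adjusted p = 0.113). *Me1*, the malic enzyme that makes NADPH for lipid synthesis, had a log2 change of -0.55 ± 0.12 (adjusted p = 0.0935), and *Gpam*, which starts triglyceride assembly, -0.46 ± 0.11 (adjusted p = 0.113). The pentose phosphate enzymes *Pgd* and *Taldo1*, in no list and picked after their values were seen, also passed, with log2 changes of -0.83 ± 0.13 (adjusted p = 0.0402) and -0.42 ± 0.07 (adjusted p = 0.0494). Among 30 genes of fatty acid oxidation and ketogenesis 0 passed (2 in DESeq2), and 4 had an unadjusted p under 0.05, all lower. One of these was the fasting hormone *Fgf21* (log2 change -1.39 ± 0.27, adjusted p = 0.0678).

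**Figure D2:**
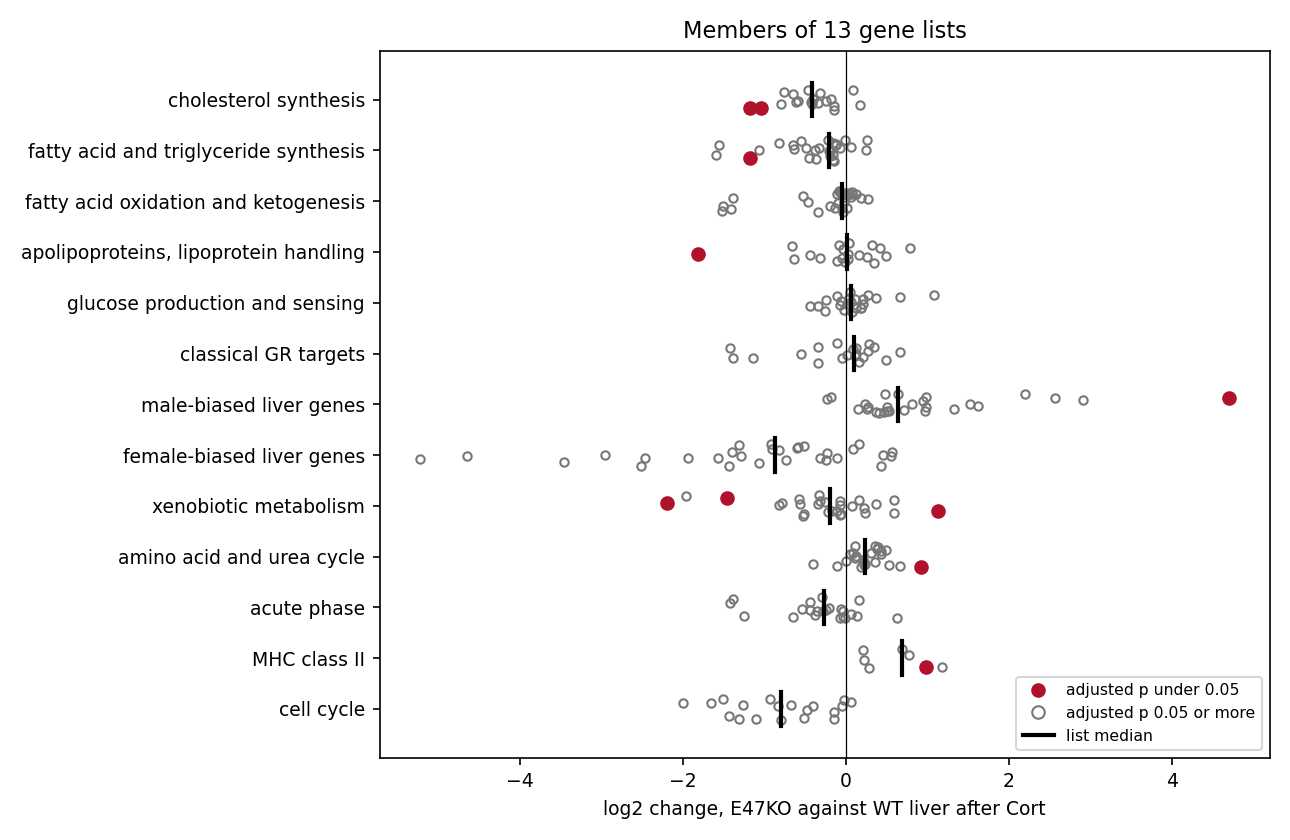
Log2 change between E47KO and WT liver after Cort for each tested member of 13 gene lists, with filled red circles for members past the threshold and black bars for list medians. The cholesterol list (median -0.41) and the fatty acid and triglyceride list (-0.20) lie mostly left of 0, while the male-biased list (0.64) lies right and the female-biased list (-0.86) left.

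Of 20 apolipoproteins and lipoprotein handling genes 1 passed (5 in DESeq2, 3 lower and 2 higher). *Apoa4*, an apolipoprotein that rises with liver fat, reached 600, 515, 339 and 470 CPM in E47KO and 1986, 1352, 975 and 1908 CPM in WT livers. The E47KO livers were all lower, by 3.52-fold (log2 change -1.81 ± 0.21, adjusted p = 0.0117), and the change was alike in both ranges (-1.83 and -1.80).  Its neighbour in the same gene cluster, *Apoc3*, an inhibitor of lipoprotein lipase, had 1754 ± 82.0 CPM in E47KO and 2798 ± 401 CPM in WT livers (log2 change -0.64 ± 0.11, adjusted p = 0.0533). *Apoc2*, the activator of that lipase, had -0.66 ± 0.12 (adjusted p = 0.0544). *Apoa5* and *Apoa1*, of the same cluster as *Apoa4*, had positive log2 changes of 0.35 ± 0.08 (adjusted p = 0.0998) and 0.79 ± 0.21 (adjusted p = 0.14), so the list median was 0.01.

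Glutathione transferases were also among the lower genes. *Gstm3*, a glutathione transferase of the mu class, reached 23.6, 24.5, 26.9 and 28.5 CPM in E47KO and 193, 97.2, 111.3 and 65.7 CPM in WT livers. The E47KO livers lay close together and all below the WT livers, which spread widely with WT replicate 1 highest (4.59-fold lower, log2 change -2.20 ± 0.25, adjusted p = 0.0117). Without WT replicate 1 the log2 change was -1.72 (adjusted p = 0.0978). *Gstm2*, of the same class, reached 53.8, 51.4, 42.4 and 71.0 CPM in E47KO and 185, 159, 107 and 136 CPM in WT livers (log2 change -1.45 ± 0.19, adjusted p = 0.0234). These genes resemble each other and lie side by side on chromosome 3, so reads could be shared between them. Of the 28 genes of the list, which gathers drug and oxidant response genes, 2 passed lower and 1 higher (8 and 4 in DESeq2). At an unadjusted p under 0.05, 10 were lower and 4 higher, against 9.21% and 5.95% of all genes. *Gstm4* (-0.56 ± 0.10, adjusted p = 0.0534) and *Nqo1*, a quinone reductase (-0.52 ± 0.11, adjusted p = 0.0794), did not pass. *Cbr3*, a carbonyl reductase outside the list, had 0.972 ± 0.210 CPM in E47KO livers and 12.9, 2.73, 3.36 and 2.09 CPM in the WT livers. All WT values were higher, and WT replicate 1 stood far above the others (log2 change -2.53 ± 0.33, adjusted p = 0.0234), with -3.49 in the first range and -1.77 in the second.

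The member of the list that passed upward was *Cyp2c54*, a cytochrome P450 of the fatty acid and drug oxidising 2c family. It had 258 ± 39.3 CPM in E47KO and 124 ± 34.7 CPM in WT livers (log2 change 1.14 ± 0.18, adjusted p = 0.0437). Near-identical relatives in this family make its reads uncertain.

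The named lower genes outside these lists had varied roles. *Rnd2*, an atypical small GTPase, reached 20.7, 19.0, 17.9 and 19.6 CPM in E47KO and 50.5, 33.8, 34.8 and 36.5 CPM in WT livers. The E47KO livers differed little among themselves and were 2.09-fold lower (log2 change -1.07 ± 0.10, adjusted p = 0.00907). *Ucp2*, a mitochondrial carrier, had 13.1 ± 1.98 CPM against 27.3 ± 4.21 CPM in WT livers (log2 change -1.06 ± 0.14, adjusted p = 0.0234). *Maoa*, the monoamine oxidase, had 12.4 ± 0.864 CPM against 18.1 ± 1.37 CPM (log2 change -0.58 ± 0.08, adjusted p = 0.0282). *Ccdc120* (-1.75 ± 0.18, adjusted p = 0.0105) and the histone gene *Hist1h4i* (-1.20 ± 0.14, adjusted p = 0.0117) were lower too. *Ly6d*, a small surface protein known from B cell progenitors and keratinocytes, reached 4.19, 1.40, 0.152 and 0.963 CPM in E47KO and 52.9, 10.1, 6.38 and 8.06 CPM in WT livers. The genotypes did not overlap (log2 change -4.09 ± 0.44, adjusted p = 0.0105), but its levels differed several-fold within each genotype. *Mep1a*, a subunit of the protease meprin, was low in both groups, at no more than 15 counts in an E47KO library and 85 in a WT library (log2 change -2.90 ± 0.31, adjusted p = 0.011).

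**Figure D3:**
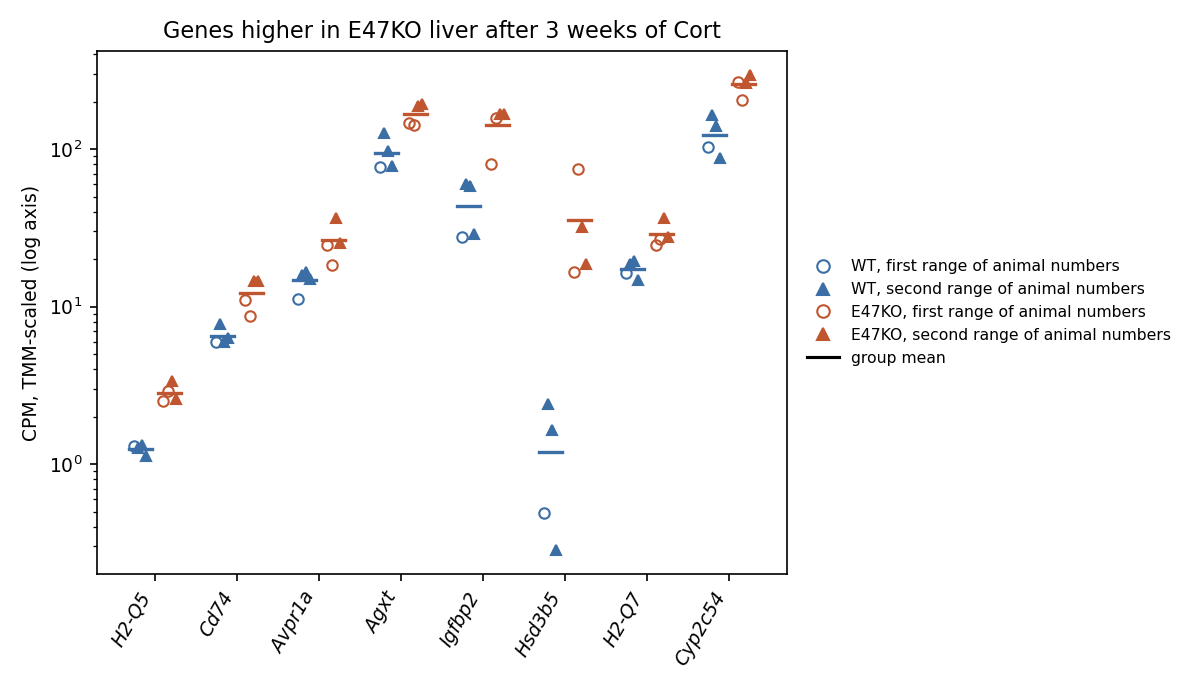
CPM (log axis) of the 8 named genes higher in E47KO liver, drawn like the plot of the lower genes. All 4 E47KO libraries lie above all 4 WT libraries in each gene, which the rule for naming these genes required. The gap is widest for *Hsd3b5*, with means of 35.6 CPM in E47KO and 1.20 CPM in WT livers.

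*Hsd3b5*, a steroid dehydrogenase made in male liver, had the largest change among the named higher genes. It reached 16.5, 75.1, 32.0 and 18.6 CPM in E47KO and 0.489, 2.39, 1.64 and 0.283 CPM in WT livers. All E47KO livers were higher, and both groups varied several-fold (log2 change 4.71 ± 0.73, adjusted p = 0.0372). It was the 1 of 27 tested male-biased genes that passed (4 in DESeq2, all higher). Of the 27, 2 lay below 0 (49.67% of all genes) and the median was 0.64. With *Hsd3b5*, 14 had an unadjusted p under 0.05, all higher in E47KO liver (5.95% of all genes were). Among these were the pheromone carrier *Mup7* (log2 change 2.56 ± 0.55, adjusted p = 0.0866) and the protease inhibitor *Serpina1e* (2.91 ± 0.86, adjusted p = 0.164), of which close copies exist, so that their reads are uncertain. Of 30 tested female-biased genes 0 passed in edgeR's test, against 9 in DESeq2 (8 lower and 1 higher), 4 with the spread estimated over all 24 livers and 2 without WT replicate 3. At an unadjusted p under 0.05, 11 were lower and 2 higher, against 9.21% and 5.95% of all genes. Of the 30, 24 lay below 0 (49.67% of all genes) and the median was -0.86. *Sult1e1*, the estrogen sulfotransferase, had 10.2 ± 10.4 CPM in E47KO and 55.0 ± 37.0 CPM in WT livers (log2 change -2.95 ± 0.67, adjusted p = 0.0963). *Cyp2a22* had 15.9 ± 10.4 and 71.0 ± 23.3 CPM (log2 change -2.51 ± 0.61, adjusted p = 0.11). All 8 mice were labelled male. Of 14 genes of the growth hormone and STAT5 pathway, which sets these sex differences, 0 passed in either tool and 3 were higher at an unadjusted p under 0.05, with a log2 change of 0.51 ± 0.16 (adjusted p = 0.194) for *Igf1*. The 14 genes summed to 1560 to 1626 CPM in E47KO and 1190 to 1417 CPM in WT livers.

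*Igfbp2*, a binding protein for insulin-like growth factors, reached 80.9, 157, 167 and 166 CPM in E47KO and 27.5, 59.9, 58.2 and 29.0 CPM in WT livers. All E47KO livers were higher, by 3.69-fold (log2 change 1.89 ± 0.27, adjusted p = 0.0312). *Agxt*, the peroxisomal alanine-glyoxylate aminotransferase, had 168 ± 26.9 CPM in E47KO and 94.8 ± 23.0 CPM in WT livers (log2 change 0.92 ± 0.13, adjusted p = 0.0312). It was the 1 of 24 genes of amino acid and urea metabolism that passed. Of the 24, 2 had a log2 change below 0 (49.67% of all genes did), with a median of 0.23. *Avpr1a*, the hepatic vasopressin receptor, had 26.3 ± 7.61 against 14.7 ± 2.404 CPM (log2 change 0.96 ± 0.14, adjusted p = 0.0307).

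The antigen presentation genes *Cd74* and *H2-Q7* were higher in E47KO liver, and so was *H2-Q5*, which is annotated as a polymorphic pseudogene. *Cd74*, the invariant chain of MHC class II, reached 10.98, 8.76, 14.6 and 14.6 CPM in E47KO and 5.93, 7.76, 5.94 and 6.31 CPM in WT livers. All E47KO livers were higher (log2 change 0.99 ± 0.13, adjusted p = 0.0244). Of 7 tested MHC class II genes *Cd74* was the 1 that passed (4 in DESeq2). At an unadjusted p under 0.05, 4 including it were higher (5.95% of all genes), and 0 of 7 lay below 0 (49.67% of all genes). The 10 listed genes summed to 20.21 to 32.09 CPM in E47KO and 13.15 to 20.06 CPM in WT livers. *H2-Aa* and *H2-Ab1*, which form a class II dimer, had log2 changes of 0.77 ± 0.19 (adjusted p = 0.115) and 0.69 ± 0.17 (adjusted p = 0.108). The class I genes *H2-Q7* (0.79 ± 0.12, adjusted p = 0.0375) and *H2-Q5* (1.19 ± 0.16, adjusted p = 0.0234) passed, and their many relatives make the split of reads between them uncertain. In whole liver, fewer cells of a type and less RNA per cell cannot be told apart. Macrophage markers summed to 68.6 to 144 CPM in E47KO and 111.3 to 169 CPM in WT livers, with 0 of 12 past the threshold (1 in DESeq2). The part of this list and of the B cell markers in the class II values was not tested. The endothelial marker sum was 203 to 303 CPM in E47KO and 188 to 254 CPM in WT livers. All 12 endothelial genes had log2 changes above 0, and 7 were higher at an unadjusted p under 0.05 (5.95% of all genes were). *Kdr*, the VEGF receptor, passed, as 1 of 12 (2 in DESeq2), with a log2 change of 0.63 ± 0.08 (adjusted p = 0.0234) and overlapping libraries. The part of the endothelial list in the results was not tested.

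*Gm9855*, a processed pseudogene of *Tdg* on chromosome 10, had the largest change of the 67. It lay at 3.68, 3.28, 3.17 and 2.97 CPM in the E47KO livers, whereas the WT libraries held at most 1 count, so it was at least 50.1-fold higher, taking 3 counts per library as the floor. *Tdg*, the thymine DNA glycosylase, reached 3.62, 4.70, 4.32 and 4.84 CPM in E47KO and 10.1, 10.8, 12.4 and 10.4 CPM in WT livers (log2 change -1.29 ± 0.12, adjusted p = 0.00907). The groups did not overlap in either gene, and since the pseudogene is a copy of *Tdg*, their reads may be split between them. *Tdg* lies 2.22 Mb from *Tcf3*, and *Gm9855* 38.4 Mb from it. Within 5 Mb of *Tcf3*, 4 of 183 tested genes passed (2.19%, against 0.459% of all genes). Beside *Tdg* these were *Shc2*, *Btbd11* and *Rfx4*, all lower. In the same stretch 43 genes (23.5%) had an unadjusted p under 0.05 in either direction. Of all genes, 9.21% were lower and 5.95% higher at that p. *Shc2*, an adaptor protein gene, had at most 11 counts in an E47KO library and 106 in a WT library. *Rfx4*, a transcription factor gene, reached 0.847, 0.609, 0.174 and 0.677 CPM in E47KO and 2.15, 2.30, 2.26 and 2.76 CPM in WT livers (log2 change -2.14 ± 0.36, adjusted p = 0.048).

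Glucose and classical GR target genes gave no call in edgeR's test after Cort. Of all genes 0.459% passed, so 0 calls in lists of this size do not set these genes apart. At an unadjusted p under 0.05, 9.21% of all genes were lower and 5.95% higher. Of 23 tested genes of glucose production and sensing 0 passed in either tool, 3 were higher and 1 lower at an unadjusted p under 0.05, 8 lay below 0 and the median was 0.07. *Pck1*, the gatekeeper of gluconeogenesis, had a log2 change of 0.21 (adjusted p = 0.537), and *G6pc*, which releases free glucose, -0.06 (adjusted p = 0.922). Of 20 classical GR targets 0 passed (*Lcn2* alone in DESeq2), 2 were lower and 0 higher at an unadjusted p under 0.05, and the median was 0.10. The chaperone *Fkbp5* had 0.09 (adjusted p = 0.872), *Tsc22d3* 0.01 (adjusted p = 0.987) and *Per1* 0.34 (adjusted p = 0.541). The lowest values of the list belonged to the metallothionein *Mt1* (-1.39 ± 0.36, adjusted p = 0.129) and to *Lcn2* (-1.43 ± 0.34, adjusted p = 0.105), which is also an acute phase gene. GR itself, *Nr3c1*, and the other members of a list of 23 coregulators and E and ID proteins gave 0 calls, in DESeq2 too, and 1 had an unadjusted p under 0.05.

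Of the other lists, 18 of 19 tested cell cycle genes lay below 0 (49.67% of all genes did) with a median of -0.79. None passed (0 of 19, against 3 in DESeq2). With an unadjusted p under 0.05 there were 8, all lower (9.21% of all genes were), for instance *Ccne1* (-1.26 ± 0.28, adjusted p = 0.0951). *E2f1*, the S phase transcription factor, which is in no list and was picked after its values were seen, passed with -0.69 ± 0.11 (adjusted p = 0.0378). Of 22 acute phase genes 0 passed (5 in DESeq2, all lower) and 18 lay below 0 (49.67% of all genes). At an unadjusted p under 0.05, 7 were lower and 1 higher, against 9.21% and 5.95% of all genes. This list was -0.67 in the first range and -0.05 in the second at its median. Lists of bile acid (21 tested), circadian (19), immediate early (14), interferon (24) and ER stress genes (20) also gave 0 calls, and 7, 3, 2, 0 and 1 of them had an unadjusted p under 0.05 in the same order. DESeq2 called 2 bile acid genes, 1 immediate early gene and 0 in the other three lists, and the medians lay between -0.04 and 0.23.

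**Figure D4:**
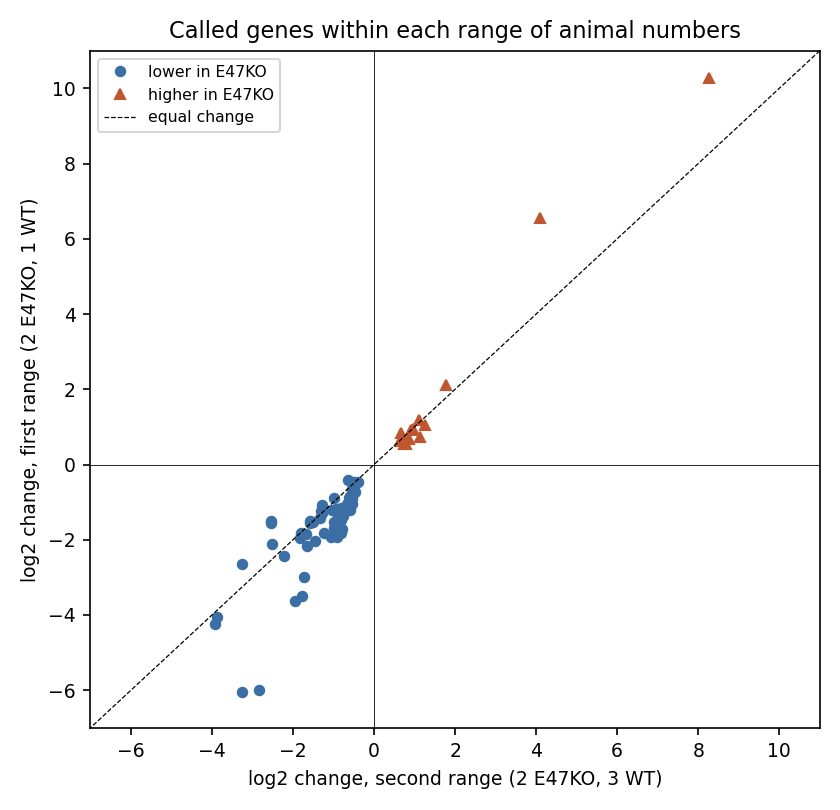
Log2 change between E47KO and WT liver within the first range of animal numbers (2 E47KO and 1 WT) and within the second (2 E47KO and 3 WT) for the genes past the threshold. All 67 have the same sign in both, which the selection on their average partly fixes, and 47 are larger in the first range.

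The effect was also taken within each range, as contrasts in a single edgeR fit. Within the first range 28 genes passed, 26 lower and 2 higher. That range has 1 WT liver, which has no replicate there and was assumed to vary like the other libraries. Within the second range 1 gene passed, *Gm9855*, and since the ranges differ in their animals these counts do not compare them. A test of the difference between ranges gave 0 genes, with a smallest adjusted p of 0.602, 735 genes at an unadjusted p under 0.05, and 17 genes in DESeq2. Among the 67 genes, 16 had an unadjusted p under 0.05 for that difference, against 735 of all 14588 genes tested. The 67 were chosen for their average effect, to which the single WT liver contributes, so nothing is read from the 16. Their median size of the log2 change was 1.42 in the first range and 1.00 in the second for all 67. The values of the first range follow its single WT liver. In *Gstm3* the log2 change was -3.003 ± 0.25 in the first range and -1.72 ± 0.21 in the second, and in *Nsdhl* -1.63 ± 0.13 and -0.91 ± 0.10. In *Apoa4*, *Tdg* and *Agxt* both ranges gave nearly the same value.

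In a joint fit with the untreated and Dex livers, the genotype effect differed between Cort and untreated livers in 13 of 15976 genes (0.0814%), 11 of them more negative after Cort. These experiments share no animals. *Gstm3* differed by a log2 of -2.55 ± 0.34 (adjusted p = 0.0202), since its untreated livers reached 63.9 ± 46.2 CPM in E47KO (n = 6) and 59.9 ± 29.0 CPM in WT (n = 5). *Cbr3* differed by -2.86 ± 0.45 and *Endod1*, a gene with a nuclease-like domain, by -1.81 ± 0.28, both with adjusted p = 0.0246. *Gstm2*, *Rnd2*, *Ccdc120*, *Prss8*, *Serpina7*, *Cd63*, *Anxa2* and *Anxa5* made up the rest of the 11. Both annexins bind calcium and membranes, and *Anxa5* was at 59.99 ± 5.74 CPM in E47KO and 126 ± 52.9 CPM in WT livers after Cort.

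The other direction held *Hsd3b5* and *Gba2*. *Hsd3b5* differed by 5.22 ± 0.82 (adjusted p = 0.0246), with 215.4 ± 73.3 CPM in E47KO and 298 ± 30.0 CPM in WT untreated livers. After Cort its mean was below the untreated mean in both genotypes, at 34.0 and 1.14 CPM on the scale of the joint fit. These experiments also differ in the glucose tolerance test and in how counts fell on the strands, so Cort cannot be told apart from these. *Gba2*, a glucosylceramidase that also cleaves bile acid glucosides, differed by 0.99 ± 0.16 (adjusted p = 0.0246). Its effect was 0.48 ± 0.13 after Cort (adjusted p = 0.14) and -0.49 ± 0.10 in untreated livers (adjusted p = 0.168), so it passed only as a difference. Without WT replicate 1, or without untreated WT replicate 4, 0 genes passed this test of the difference.

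**Figure D5:**
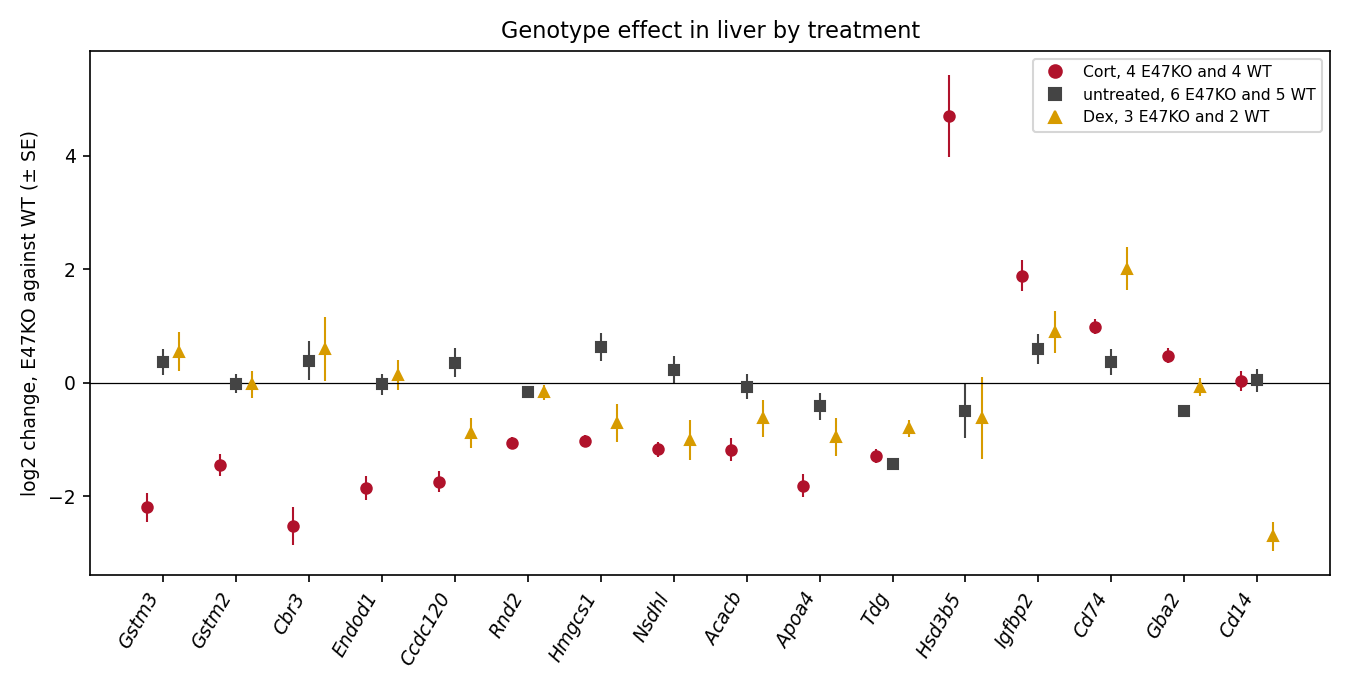
Log2 change between E47KO and WT liver with its standard error for 16 genes after Cort (from the 8 Cort livers), without treatment and after Dex (both from the joint fit). *Tdg*, *Apoa4*, *Rnd2*, *Acacb* and *Gstm2* are below 0 in all 3. Without treatment and after Dex *Apoa4* is at -0.42 and -0.96, and *Gstm2* at -0.02 and -0.03. *Gstm3*, *Gstm2* and *Cbr3* are below 0 by more than a log2 unit after Cort but not in the other experiments, with -2.20, -1.45 and -2.53.

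For the sterol list the 3 experiments gave different medians. The median log2 change was -0.41 after Cort, 0.33 in untreated livers, where 20 of 20 genes lay above 0, and -0.72 after Dex, where 18 of 20 lay below 0. *Hmgcs1* was at 0.64 ± 0.25 in untreated livers (adjusted p = 0.579) and -0.71 ± 0.33 after Dex (adjusted p = 0.733), against -1.03 ± 0.11 after Cort. *Nsdhl* was at 0.23 ± 0.25, -1.01 ± 0.35 and -1.18 ± 0.14 in the same order. The difference between Cort and untreated livers had an unadjusted p under 0.05 in 9 of the 20 genes, against 11.9% of all genes, and 0 passed, with adjusted p = 0.0898 for *Hmgcs1* and 0.16 for *Nsdhl*. The male-biased list had medians of 0.64 after Cort, -0.29 in untreated and -0.02 in Dex livers, and the female-biased list -0.86, 0.41 and 0.21. MHC class II genes had positive medians in all 3 experiments, 0.69, 0.36 and 1.70.

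Of the 67 genes, 4 also passed in untreated livers, namely *Gm9855*, *Tdg*, *Btbd11* and *Rfx4*, all on chromosome 10. *Tdg* had a log2 change of -1.44 ± 0.10 there. After Dex, *Gm9855* and *Btbd11* passed. These are 4 of the 6 genes that passed in untreated livers (0.0376% of 15976) and 2 of the 9 after Dex (0.0563%). At an unadjusted p under 0.05, 10 of the 67 showed an effect in untreated livers, where 7.27% of all genes did, and 7 of the 10 were in the direction seen after Cort. After Dex 21 of the 67 did, against 6.78% of all genes, all 21 in that direction. The median size of the log2 change in the 67 genes was 1.19 after Cort, where they were chosen, 0.17 in untreated and 0.48 in Dex livers.

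The genotype effect differed between Cort and Dex livers in 1 of 15976 genes (0.00626%), *Cd14*, the endotoxin co-receptor of macrophages, by a log2 of 2.75 ± 0.33 (adjusted p = 0.00542). After Dex it lay at 1.76 ± 0.458 CPM in E47KO (n = 3) and 11.4 ± 3.96 CPM in WT livers (n = 2). After Cort it reached 12.7, 13.6, 0.890 and 1.41 CPM in E47KO and 13.9, 0.923, 0.915 and 1.34 CPM in WT livers, so that the 3 livers of the first range were high in both genotypes (log2 change 0.02 ± 0.18). It did not pass without the term for the range (adjusted p = 1), and the Dex livers are too few, with 2 WT animals, to set the WT level with much precision. Among the 67 genes, 39 had an unadjusted p under 0.05 for this difference, against 8.09% of all genes, and 0 passed. The 67 were chosen for their effect after Cort, which moves this difference away from 0, so nothing is read from the 39.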

How the data were processed

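The labels name Qiazol for the RNA of livers treated for 3 weeks, whereas the study's methods name the RNeasy kit for liver. The deposited values are gene counts, not normalized, and the study's methods name STAR 2.4.2a for mapping to mm10 and counting reads per Ensembl gene. The closing lines of the Dex files carry names of the HTSeq type, so which tool made those counts is uncertain. The unstranded count column was used: the Cort libraries are labelled stranded, but 50.05 to 50.1% of their counts fell on the larger strand, against 96.93 to 97.5% in untreated livers. Entries that name no gene (20.8 to 22.85% in Cort libraries) were left out. Untreated libraries held 30.87 to 39.01 and Dex libraries 17.5 to 21.45 M gene counts. Depth limits mainly genes with few counts. Replicate libraries differed by more than counting noise.

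Genes were filtered with filterByExpr and tested in edgeR 4.0.16 (R 4.3.3, TMM scaling, quasi-likelihood test, Benjamini-Hochberg adjusted p) for genotype, with the range of animal numbers, read from the deposited files, as a covariate and 5 residual degrees of freedom. A joint fit of 24 livers with a term for each range gave the differences between experiments. What the ranges stand for is not known. Called means an adjusted p under 0.05, and standard errors are of the log2 change. Named genes were *Tcf3*, the 15 lower and up to 10 higher genes ranked by adjusted p whose libraries did not overlap and whose names are not predicted, list members that passed, the highest members of lists that did not, and up to 5 genes per test of a difference. Other names were picked after their values were seen. The genes, 35 lists and comparisons were chosen with earlier results of these data known. Scripts were tested on simulated data. Alternatives were DESeq2 1.42.0, RLE scaling, no filter, the strand column, no range term, a replicate block, and leaving out each library. Tables of the authors' own comparisons (fold changes and p-values) and the other tissues were not used. Promoters are from RefSeq.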

Additional observations from a re-analysis of the deposited data

Results flagged for a closer look

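In 7 of 56 sets of 4 libraries, 2 sets for each of the 28 named genes, 1 library lay farther from the rest than Dixon's 95% critical value allows, which chance gives in about 1 of 20 sets if the 4 livers are alike. Each set held livers of both ranges of animal numbers, and the distant library was of the first range in every case. WT replicate 1, the only WT liver of that range, was the highest WT liver in 5 of the 7 sets. It lay at 50.5 CPM for *Rnd2*, 52.9 CPM for *Ly6d*, 12.9 CPM for *Cbr3*, 2.25 CPM for *Shc2* and 13.9 CPM for *Cd14*. The range and this animal cannot be told apart. E47KO replicate 1 was the highest E47KO liver for *Shc2* (0.252 CPM) and the lowest for *Igfbp2* (80.9 CPM).

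The genotype effect after Cort minus that in untreated livers, as a log2 difference in the joint fit, was -2.55 for *Gstm3*, -1.81 for *Endod1*, 5.22 for *Hsd3b5*, -2.86 for *Cbr3* and 0.985 for *Gba2*, each past the threshold. The effect after Cort minus that after Dex was 2.75 for *Cd14*, whose Cort livers follow the range of animal numbers.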

How the results depend on the processing

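The count of 67 genes changed after Cort became 4 without the range term, 29 with a replicate block in its place (15 of them among the 67), 1 in the second range alone, 217 with the spread estimated over all 24 livers (an alternative chosen after seeing the data), 740 without a filter on low counts and 552 in DESeq2 (148 higher and 404 lower). It ranged from 1 to 127 when 1 library was left out: 1 without WT replicate 1 or E47KO replicate 3, 15 and 23 without E47KO replicates 1 and 2, 23 without WT replicate 4 and 127 without WT replicate 3. RLE scaling gave 68 and the strand column 92. Equally numbered E47KO and WT livers correlated in their deviations at 0.715, 0.028, 0.552 and 0.181, so the numbers were not taken to pair the animals, and not every liver correlated best with its own number. The difference between ranges, 0 genes, became 83 without the filter and 17 in DESeq2, stayed at 0 in the leave-one-out fits, and could not be fitted without WT replicate 1. The difference between Cort and untreated livers, 13 genes, became 1 without the range term, 23 in the strand column, 267 without the filter and 197 in DESeq2, and ranged from 0 to 40 when 1 library was left out (0 without WT replicate 1, 1 without E47KO replicate 3, 40 without E47KO replicate 4 and 27 without WT replicate 3 of the Cort livers, and 0 without untreated WT replicate 4). The difference between Cort and Dex livers, 1 gene, became 0 without the range term, 96 without the filter and 37 in DESeq2, and ranged from 0 to 148, the latter without Dex WT replicate 1. Without the filter, 19 female-biased, 15 male-biased, 11 drug and oxidant response, 8 fatty acid, 7 cholesterol and 4 MHC class II genes were called. Without WT replicate 1 or E47KO replicate 3, 0 were called in each of these lists. Of 28 named genes, the side of the threshold changed for 22 without the range term, 14 with the block and 25 without WT replicate 1 or without E47KO replicate 3. It changed for 1 in DESeq2 and for 0 with RLE scaling. Of the genes that changed side, 0 changed direction. Where a cause is not shown by fewer libraries or genes, the cause was not tested.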
